A study of Rattus norvegicus with 10 samples.

Results

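The 10 genes *Cyp24a1*, *Cyp27b1*, *Vdr*, *Kl*, *Trpv5*, *Trpv6*, *Calb1*, *S100g*, *Slc8a1* and *Casr*, which handle vitamin D and tubular calcium, were taken by symbol from a table of 32545 genes. Each symbol matched a single row, and all 10 passed the filter on low values (0.1 FPKM or more on average over the libraries). RNA-seq of renal cortex was compared between 5 male and 5 female PCK rats, with 1 library per rat. PCK rats carry a mutation of *Pkhd1* and are a model of autosomal recessive polycystic kidney disease, and both groups carried it. The sample labels call the tissue kidney and the rats 12 to 14 weeks old, and the study, in its account of the metabolomics and RNA-seq animals, describes littermates of 2 litters and names no treatment. The study's methods give a slightly younger age than the labels. No rat without the mutation was analysed here, so every comparison is between the sexes within the cystic strain. Values are FPKM, fragments per kilobase of gene length scaled to sequencing depth, which correct for gene length and library size. The deposited values had the same median ratio to the geometric mean library (1.01) in all 10 libraries, so they were already on a median-ratio scale and not simply divided by the reads counted.

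The proximal tubule makes calcitriol, the active form of vitamin D, with the hydroxylase encoded by *Cyp27b1*, and *Cyp24a1* encodes the hydroxylase that starts its breakdown. Calcitriol acts through the receptor encoded by *Vdr*, a transcription factor whose best known target gene in kidney is *Cyp24a1*. In the distal convoluted and connecting tubule, calcium enters through the channels TRPV5 and TRPV6, is carried by the calbindins encoded by *Calb1* and *S100g*, and leaves through the sodium-calcium exchanger encoded by *Slc8a1*. Klotho, encoded by *Kl*, is the co-receptor of FGF23, and the calcium-sensing receptor encoded by *Casr* restrains calcium reabsorption in the thick ascending limb.

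Start regions of the receptor gene *Vdr*, of *Cyp27b1* and of the neighbouring channel genes *Trpv5* and *Trpv6* are shown because they belong to the receptor that rose, to the activating enzyme and to the entry channels compared below. Each is the 250 bases before the gene's start in RefSeq's annotation of the rat build GRCr8, read 5′ to 3′ on the gene's own strand, with matches to the searched motifs in capitals. They lie at chr7:130916758-130917007 (minus strand) for *Vdr*, chr7:64756376-64756625 (plus strand) for *Cyp27b1*, chr4:71529383-71529632 (minus strand) for *Trpv5* and chr4:71489668-71489917 (minus strand) for *Trpv6*. The table of start regions held 7 of the 10 genes, and *Cyp24a1*, *Calb1* and *S100g* are named only.
Vdr: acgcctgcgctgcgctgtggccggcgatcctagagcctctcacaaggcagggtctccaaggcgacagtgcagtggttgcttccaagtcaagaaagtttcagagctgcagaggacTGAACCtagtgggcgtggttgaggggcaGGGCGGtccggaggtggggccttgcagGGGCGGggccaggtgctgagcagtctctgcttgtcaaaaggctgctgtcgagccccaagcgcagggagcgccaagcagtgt
Cyp27b1: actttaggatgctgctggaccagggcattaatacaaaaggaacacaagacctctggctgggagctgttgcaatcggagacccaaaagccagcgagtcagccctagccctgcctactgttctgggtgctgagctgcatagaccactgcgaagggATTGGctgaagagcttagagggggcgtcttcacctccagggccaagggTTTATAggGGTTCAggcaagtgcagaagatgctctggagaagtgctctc
Trpv5: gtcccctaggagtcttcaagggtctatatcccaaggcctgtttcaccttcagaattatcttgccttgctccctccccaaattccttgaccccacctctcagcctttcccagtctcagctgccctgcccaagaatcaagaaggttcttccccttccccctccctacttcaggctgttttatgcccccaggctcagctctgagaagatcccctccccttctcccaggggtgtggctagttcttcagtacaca
Trpv6: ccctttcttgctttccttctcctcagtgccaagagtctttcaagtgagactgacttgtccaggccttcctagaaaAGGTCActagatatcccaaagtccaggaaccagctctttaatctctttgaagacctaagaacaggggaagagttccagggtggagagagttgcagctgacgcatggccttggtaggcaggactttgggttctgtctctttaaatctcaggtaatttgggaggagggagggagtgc

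Both strands were searched for the nuclear receptor hexamers AGGTCA and GGTTCA, for the GC box GGGCGG, for TATAAA and for CCAAT. *Vdr* held 2 GC boxes, which begin 108 and 81 bases before the start, and 1 GGTTCA on the opposite strand. Its region was 63.6% G or C, against a median of 51.2% over 33469 start regions. A GC box was found in 30.5% of all start regions, and 14.8% held at least 2. *Cyp27b1* held GGTTCA from 41 to 36 bases before the start, together with TATAAA and CCAAT on the opposite strand. *Trpv6* held 1 AGGTCA, from 175 to 170 bases before the start, and *Trpv5* held none of the searched letters. Of all start regions, 9.77% held GGTTCA, 14.1% AGGTCA, 12.9% TATAAA and 34.0% CCAAT. A pair of hexamers spaced by 3 bases was present in 15 of them (0.0448%) and in none of the 7 members searched. A match is a description of the letters and was not tested for binding.

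Males had 13912569 to 20285911 reads on genes per library (median 14387669), and females had 14963924 to 19556707 (median 15896262). The mitochondrial share of reads was 14.3% to 26.8%, and female 2, which had the most, also stood apart on the second principal component. Without female 2, *Cyp24a1*, *Calb1* and *Vdr* each kept an adjusted p of at most 0.05 in the test given below. Of 10 proximal tubule markers, all had reads in every group, and their summed level was 2405 to 3818 FPKM in the males and 2441 to 4283 FPKM in females. Summed smooth muscle and fibroblast markers ran from 354 to 456 FPKM in the males and from 120 to 431 FPKM in females, and summed injured tubule markers from 3905 to 7647 and from 1114 to 6274 FPKM. *Spp1* made up most of the injured tubule sum, with means of 4867 of 5604 FPKM in males and 3185 of 3855 FPKM in females. Of that list's 6 tested genes, 0 had a log2 fold change above 0 (median -0.94). The part of these marker lists in the results below was not tested. In whole tissue, fewer cells of a type and less RNA per cell cannot be told apart.

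*Cyp24a1*, *Calb1* and *Vdr* rose in females relative to males, with mean levels of 294, 281 and 74.5 FPKM against 124, 139 and 40.0 FPKM. For these 3 genes every female library was above every male library. *Kl*, *Trpv5*, *S100g*, *Slc8a1*, *Casr*, *Trpv6* and *Cyp27b1* did not pass the adjusted test. The test was limma on log2(FPKM + 0.1) over 17631 genes with Benjamini-Hochberg adjustment, and p-values measure the spread between these rats. The labels used here give no litter, so litter was not modelled and littermates were treated as separate rats. Requiring a log2 fold change of 1 or more in either direction besides an adjusted p up to 0.05, 1 of the 10 members passed (*Cyp24a1*), against 1.32% of all tested genes. A second member passed both without male 1, male 5, female 1 or female 5 (*Calb1*) and without male 3 (*Vdr*). At the adjusted p alone 3 members passed, all higher in females, against 2.4% of tested genes in either direction, 1.26% higher in females and 1.14% lower in females. Of the 17631 genes, 223 rose and 201 fell at the adjusted p alone, 130 and 235 after scaling by total FPKM, and 190 and 318 with limma-voom on recovered reads. Ranges of the sexes did not overlap for 3 members, against 5.1% of all tested genes. The median log2 fold change over the 10 members was 0.28, with 8 above 0, and over all tested genes it was -0.01.

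**Figure D1:**
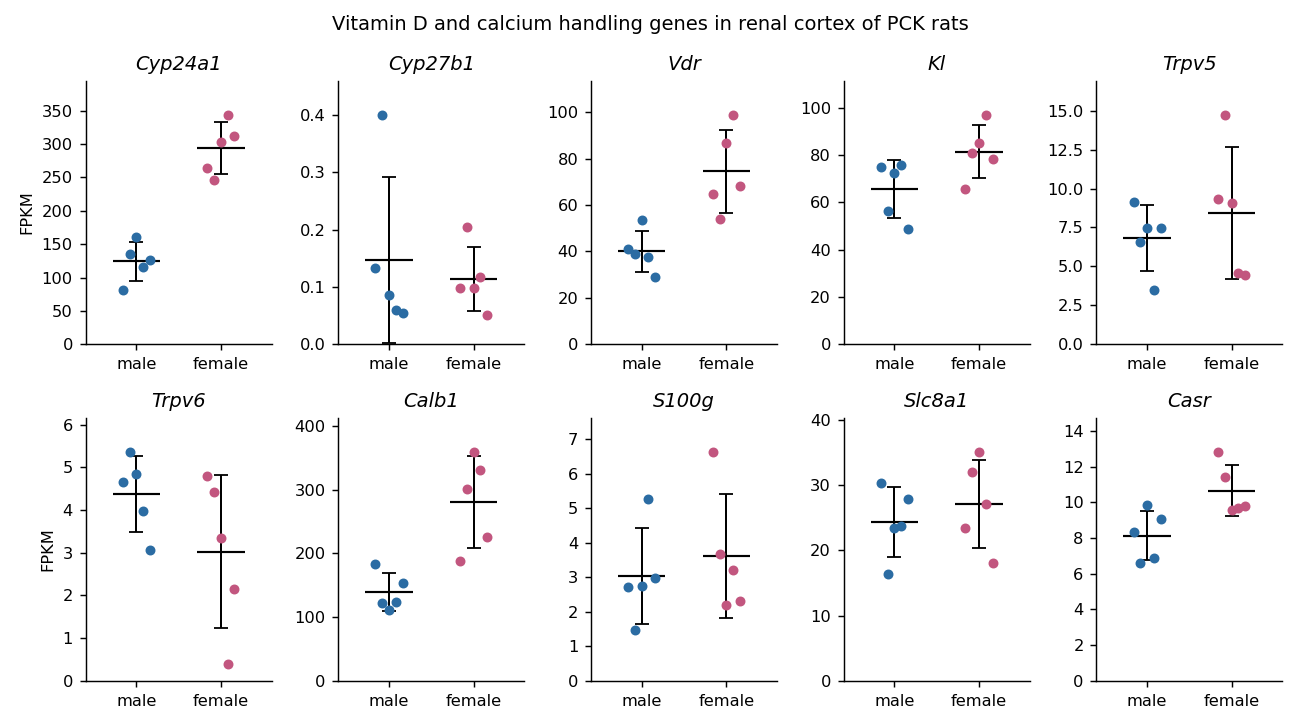
FPKM of the 10 members (vertical axes, each starting at 0) in 5 male (blue) and 5 female (pink) rats, with 1 point per library, the mean as a line and the SD as a bar. *Cyp24a1*, *Calb1* and *Vdr* show no overlap between the sexes, *Trpv6* has a single female library at 0.407 FPKM, and *Cyp27b1* stays under 0.5 FPKM in all libraries.

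*Cyp24a1* (ENSRNOG00000013062) lies on chromosome 3 of Rnor_6.0, the build of the table, from 168097485 to 168111920. It was measured at 81.6, 134.7, 160.9, 116.5 and 126.7 FPKM in males 1 to 5 and at 264.7, 245.8, 302.8, 343.1 and 312.6 FPKM in females 1 to 5. The lowest female library stood well above the highest male library, and 4046 to 19490 reads per library lay behind these values. The log2 fold change was 1.27 (SE 0.17, 95% interval 0.90 to 1.64, limma adjusted p = 0.00224). By size it was 595th and by p 88th of the tested genes, and the exact permutation test of the mean FPKM gave p = 0.00794 (n = 5 per sex, two-sided), the smallest that 5 against 5 allows. Without any single library the log2 fold change stayed between 1.12 and 1.37, and every such fit kept the call.

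*Cyp27b1* (ENSRNOG00000046214; chromosome 7, 70335061 to 70340005), the opposing enzyme, was near the limit of detection. Male libraries held 5, 18, 3, 3 and 2 reads and female libraries 4, 7, 4, 5 and 2 reads, which came to 0.134, 0.399, 0.0858, 0.0601 and 0.0550 FPKM and to 0.0983, 0.205, 0.0977, 0.116 and 0.0518 FPKM. The limit of detection was set at 3 reads, and male 5 and female 5 fell under it. The log2 fold change was -0.09 (SE 0.39, 95% interval -0.95 to 0.77, limma adjusted p = 0.946), so a difference between the sexes was not detectable at this depth. Within each library, the log2 ratio of (FPKM + 0.1) of *Cyp24a1* to that of *Cyp27b1* was 8.45, 8.08, 9.76, 9.51 and 9.68 in males and 10.4, 9.66, 10.6, 10.6 and 11.01 in females. The ranges overlapped through female 2 at 9.66. Its mean was 9.09 ± 0.775 (SD, n = 5) in males and 10.45 ± 0.499 (SD, n = 5) in females, a difference of 1.36 (exact permutation test, two-sided, p = 0.0238). Most of this difference is the log2 fold change of *Cyp24a1* itself (1.27). The denominator rests on 2 to 18 reads, and with a pseudocount of 0.01 the exact permutation p was 0.0794.

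*Vdr* (ENSRNOG00000054420), the calcitriol receptor gene with the GC-rich start region printed above, lies on chromosome 7 from 139342063 to 139394166. Its level was 41.2, 38.9, 53.6, 37.5 and 29.0 FPKM in the males and 64.6, 54.0, 86.9, 98.6 and 68.4 FPKM in females. The sexes met closely between male 3 at 53.6 and female 2 at 54.0 FPKM but did not overlap. The mean rose from 40.0 ± 8.87 to 74.5 ± 18.0 FPKM (SD, n = 5 each), a log2 fold change of 0.89 (SE 0.19, 95% interval 0.48 to 1.299, limma adjusted p = 0.0313). The exact permutation p was 0.00794 and held past 0.05 without each library in turn. The limma call was lost when any of 7 libraries was left out (males 1, 2, 4 and 5 and females 3, 4 and 5), at adjusted p of up to 0.0754, and after scaling by total FPKM, at 0.0885.

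The levels of *Cyp24a1* and *Vdr* were also set against the summed FPKM of 10 proximal tubule markers in the same library. That sum did not differ past the test between the sexes (exact permutation p = 0.921), and 1 of its 10 genes, *Cubn*, passed the adjusted limma test. Per unit of this sum *Cyp24a1* was higher in females by 1.26 and *Vdr* by 0.88 on the log2 scale, both without overlap (exact permutation p = 0.00794 for each, n = 5 per sex). *Cyp27b1* differed by -0.10 on this scale (exact permutation p = 0.786). For *Cyp24a1* and *Vdr* these differences are close to their log2 fold changes of 1.27 and 0.89. *Vdr* was not set against the distal markers described below, whose sum was higher in females (exact permutation p = 0.0159). As ratios chosen after the values were seen, and without a test, *Cyp24a1* was a median 3.11 times *Vdr* in males (1.98 to 4.37) and 4.10 times in females (3.48 to 4.57).

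*Kl* (ENSRNOG00000001092; chromosome 12, 943006 to 987551), the FGF23 co-receptor gene, was at 74.9, 56.5, 72.4, 75.8 and 48.9 FPKM in the males and at 65.8, 80.7, 85.3, 96.8 and 78.4 FPKM in females. The ranges overlapped, with female 1 below 3 of the males. Its log2 fold change was 0.32 (SE 0.14, limma adjusted p = 0.315). The exact permutation p of 0.0794 became 0.0238 without female 1 and 0.159 without male 5. Against the proximal markers *Kl* differed by 0.31 on the log2 scale (exact permutation p = 0.0952), and by 0.20 to 0.38 with a library left out. Against the distal markers described below it differed by -0.14 (p = 0.341, exact permutation). The distal difference was -0.24 without male 5 (exact permutation p = 0.0397) and -0.048 without male 4 (exact permutation p = 0.667). The ratio of *Kl* to *Vdr*, chosen after the values were seen and not tested, had a median of 1.69 in males (1.35 to 2.02) and 1.02 in females (0.981 to 1.49).

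**Figure D2:**
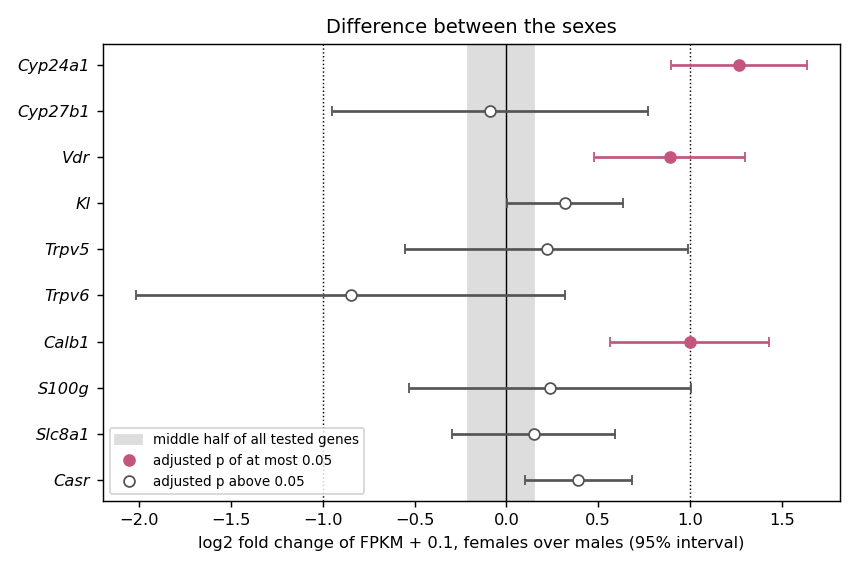
Log2 fold change of FPKM + 0.1, females over males, from limma for the 10 members, with 95% intervals, dotted lines at -1 and 1, and a grey band for the middle 50% of all tested genes (-0.21 to 0.15). The filled points of *Cyp24a1* (1.27), *Calb1* (0.998) and *Vdr* (0.89) passed an adjusted p of 0.05, and the widest interval belongs to *Trpv6*.

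*Calb1* (ENSRNOG00000007456; chromosome 5, 29538380 to 29562773), the large cytosolic calbindin of the distal tubule, was at 183.7, 122.0, 111.9, 123.6 and 154.0 FPKM in the males and at 188.4, 301.1, 358.9, 331.2 and 225.4 FPKM in females. Female 1 was only just above male 1, and the other 4 females were well above every male. A log2 fold change of 0.998 lay just under the threshold of 1 (SE 0.20, 95% interval 0.57 to 1.43, limma adjusted p = 0.0226). The exact permutation p was 0.00794. The limma call was lost without male 2, 3 or 4 or female 3 or 4, at adjusted p between 0.0527 and 0.0660.

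Markers of the distal convoluted and connecting tubule also rose in part. Of 10 such genes 9 were in the table, *Pvalb* was at 0 reads in every library, and 8 were tested. Of these 8, 3 rose at the adjusted p, namely *Egf* (log2 fold change 0.82, adjusted p = 0.00233), *Emx1* (0.56, 0.0220) and *Wnk1* (0.54, 0.0422), none fell and 7 were above 0. With a library left out, *Egf* kept its call in all 10 fits, *Emx1* lost it in 6 (males 2, 3 and 5 and females 3, 4 and 5) and *Wnk1* in 7 (males 2, 3, 4 and 5 and females 2, 3 and 4). *Emx1* and *Wnk1* also lost it after scaling by total FPKM, and *Wnk1* with limma-voom. Their summed level was 289 to 401 FPKM in the males and 377 to 533 FPKM in females (means 336 and 461, exact permutation p = 0.0159). Within each library, *Calb1* over this sum was still higher in females by 0.54 on the log2 scale, without overlap of the sexes (exact permutation p = 0.00794, n = 5 per sex), and this held past 0.05 without each library in turn.

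*Trpv5* (ENSRNOG00000015394; chromosome 4, 70947717 to 70974006), the main calcium channel of the distal tubule, was at 9.16, 6.59, 7.48, 3.46 and 7.43 FPKM in the males and at 9.34, 14.7, 9.08, 4.55 and 4.42 FPKM in females. The ranges overlapped, with the highest value in female 2, and the log2 fold change was 0.22 (SE 0.35, 95% interval -0.55 to 0.99, limma adjusted p = 0.821). *Trpv6* (ENSRNOG00000014714; chromosome 4, 70918632 to 70934295), which ends 13421 bases from the start coordinate of *Trpv5*, was at 4.65, 5.36, 4.83, 3.98 and 3.07 FPKM in the males and at 4.81, 4.41, 3.36, 0.407 and 2.16 FPKM in females. Female 4 was the lowest library, at 21 reads, and females 1, 2 and 3 were within the male range. The log2 fold change was -0.85 (SE 0.53, 95% interval -2.02 to 0.32, limma adjusted p = 0.484), and without female 4 it was -0.28 (limma adjusted p = 0.699).

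Relative to the summed distal markers, *Trpv6* was at -6.24 in males and -7.55 in females on the log2 scale, a difference of -1.303 (exact permutation p = 0.0397, n = 5 per sex). This p was past 0.05 in 4 of 10 repeats with a library left out, and the difference was -0.69 without female 4. *Trpv5* differed by -0.24 on the same scale (exact permutation p = 0.611), from -0.46 without female 2 to -0.0098 without female 4. The ratio of *Trpv5* to *Trpv6*, chosen after the values were seen and not tested, had a median of 1.55 in males (0.868 to 2.42) and 2.70 in females (1.94 to 11.2), with the highest value in female 4. The ratio of *Calb1* to *Trpv5*, likewise untested, was a median 20.05 in males (14.9 to 35.7) and 39.5 in females (20.2 to 72.7).

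**Figure D3:**
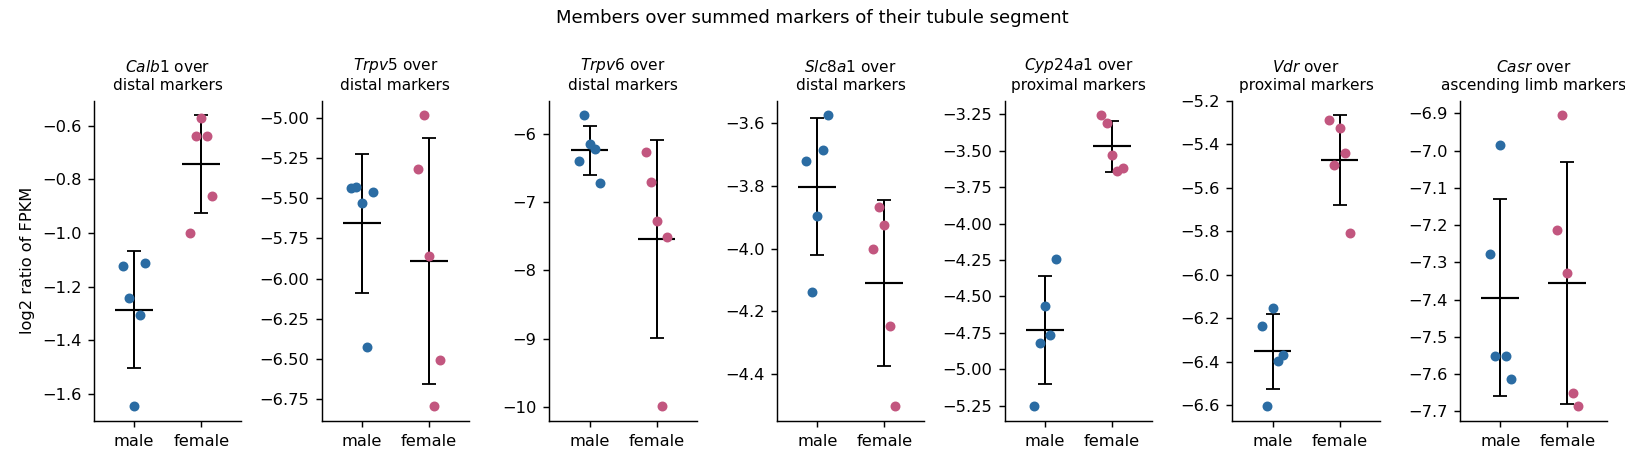
Log2 ratio of a member's FPKM to the summed FPKM of its tubule segment's marker genes in each library of 5 male (blue) and 5 female (pink) rats, with the mean as a line and the SD as a bar. *Calb1* over distal markers and *Cyp24a1* and *Vdr* over proximal markers are higher in all 5 females than in any male, while *Casr* over thick ascending limb markers overlaps.

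*S100g* (ENSRNOG00000004222; chromosome X, 33443186 to 33445709), the small calbindin, rested on 11 to 45 reads per library. It was at 2.72, 1.46, 2.74, 5.28 and 2.97 FPKM in the males and at 6.62, 3.68, 2.19, 3.21 and 2.33 FPKM in females. Male 4 and female 1 were the highest libraries, and the ranges overlapped. The log2 fold change was 0.24 (SE 0.35, limma adjusted p = 0.804). *S100g* overlaps *Ctps2* on the opposite strand, and whether counting used strand is not given in the sources used here, so its values are uncertain.

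*Slc8a1* (ENSRNOG00000008479; chromosome 6, 4258991 to 4520604), the exchanger that returns calcium to the blood side, was at 30.3, 16.3, 23.5, 23.7 and 27.8 FPKM in the males and at 23.4, 32.0, 35.0, 27.0 and 18.0 FPKM in females. The ranges overlapped, with a log2 fold change of 0.15 (SE 0.20, 95% interval -0.30 to 0.59, limma adjusted p = 0.786), which ran from 0.01 without male 2 to 0.29 without female 5. A gene named only by its assembly contig overlaps it on the opposite strand. Over the distal marker sum *Slc8a1* was at -3.80 in males and -4.11 in females on the log2 scale, a difference of -0.31 (exact permutation p = 0.0794). Without male 2 that exact permutation p was 0.0397.

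*Casr* (ENSRNOG00000002265; chromosome 11, 67188630 to 67258771), the calcium-sensing receptor gene, which a small 7SK gene on the same strand overlaps, was at 8.32, 6.59, 9.83, 6.90 and 9.07 FPKM in the males and at 12.8, 11.4, 9.60, 9.69 and 9.78 FPKM in females. Male 3 was above 3 of the females, so the ranges overlapped. The mean was 8.14 ± 1.39 FPKM in the males and 10.7 ± 1.42 FPKM in females (SD, n = 5 each, exact permutation p = 0.0317, unadjusted for the 10 members tested in this way). In limma the log2 fold change was 0.39 (SE 0.13, limma adjusted p = 0.172). The exact permutation p rose above 0.05 without male 2, male 4, female 1 or female 2, at 0.0556 to 0.0714, and after scaling by total FPKM, at 0.198.

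All 7 thick ascending limb markers were in the table and tested, with *Kcnj1* higher (log2 fold change 0.64, limma adjusted p = 0.00263) and *Ptger3* lower (-0.62, limma adjusted p = 0.0435). The *Ptger3* call was lost in 8 of 10 fits with a library left out (all but females 1 and 2), at adjusted p of up to 0.0990, and after scaling by total FPKM. The summed level was 1255 to 1793 FPKM in the males and 1377 to 2035 FPKM in females (exact permutation p = 0.0556). *Umod* made up most of that sum, with means of 985 of 1385 FPKM in males and 1265 of 1770 FPKM in females. Per unit of this sum *Casr* was at -7.39 in males and -7.36 in females on the log2 scale, a difference of 0.04 (exact permutation p = 0.889).

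In order of mean FPKM, males had *Calb1*, *Cyp24a1*, *Kl*, *Vdr*, *Slc8a1*, *Casr*, *Trpv5*, *Trpv6*, *S100g* and *Cyp27b1*. Females had *Cyp24a1* ahead of *Calb1* and *S100g* ahead of *Trpv6*, and otherwise the same order. The ranges of *Calb1* and *Cyp24a1* overlapped in each sex, as did those of *Kl* and *Vdr*, and those of neighbours from *Casr* down to *S100g* or *Trpv6*. *Vdr* and *Slc8a1* overlapped in males and were separate in females. *Cyp27b1* was lowest in every library and came closest to another member in female 4, at 0.116 FPKM against 0.407 FPKM for *Trpv6*.

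Between rats of the same sex, members were compared by their deviations from the sex mean of log2(FPKM + 0.1), over the 36 pairs of the 9 members with a mean of at least 1 FPKM. No pair passed after Benjamini-Hochberg adjustment (lowest adjusted p = 0.719, exact permutation within sex, 10 libraries), and 2 had an unadjusted p under 0.05. *Calb1* and *Slc8a1* had r = 0.74 (permutation p = 0.03) and rho = 0.84 (permutation p = 0.00813), and r = 0.76 without male 1 and female 1. *Vdr* and *Kl* had r = 0.67 (permutation p = 0.0448) and rho = 0.70 (permutation p = 0.0408), and r = 0.55 without male 3 and female 4. Both relations fail the adjustment.

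The genes most like each member were found by Pearson's r of the same deviations over 10 libraries among 13362 genes that averaged 1 FPKM or more, as a description without a test. The points share the same RNA libraries and their depth. *Cyp24a1* was closest to *Ephx2* (r = 0.95), which encodes soluble epoxide hydrolase, and then to *Vwa5a* and *Spice1* (0.89 each). *Vdr* was closest to *Wdr72* (0.98), *Shkbp1* (0.97) and *Galc* (0.96), and *Kl* to *Vac14* (0.97), *Med16* and *P3h2* (0.93 each). *Calb1* was closest to *Slc16a3* (0.98), to *Atp6v1b1* and *Rhbg* (0.94 each), of which *Atp6v1b1* is on the intercalated cell marker list. That list's sum was 204 to 303 FPKM in the males and 302 to 448 FPKM in females (exact permutation p = 0.0159). *Trpv5* was closest to *Ctse* (0.98), *Cd7* and *Klhl5* (0.96 each), and *Trpv6* to *Nlgn2* and *Alox15b* (0.98 each). *Slc8a1* was closest to *Sugp2* (0.96), *Klhl3* (0.93), a regulator of salt transport in the distal tubule, and *Ust* (0.92). *S100g* was closest to *Ddx6* (0.97), *Ptprj* (0.95) and *Ccdc96* (0.94), and *Casr* to *Zfp563* (0.94), *Mir6334* (0.92) and *Smg6* (0.91).

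Other genes of the pathway were read from lists. Of 19 tested rows for vitamin D synthesis and signalling, 1 rose, 1 fell and 17 did not pass the adjusted test, with a median log2 fold change of 0.02, and with limma-voom 0 rose and 1 fell. *Gc*, the vitamin D-binding protein that carries the hormone in plasma, fell by 4.29 on the log2 scale (SE 0.37, limma adjusted p = 9.14e-05). It was at 7.002, 13.9, 6.07, 17.6 and 12.4 FPKM in the males and at 1.096, 0.435, 0.264, 0.315 and 0.385 FPKM in females, from 157 to 650 reads and 8 to 33 reads. Every male library was above every female library. *Cubn*, part of the receptor that takes up filtered binding protein, rose by 0.72 on the log2 scale (SE 0.16, limma adjusted p = 0.0467), from 49.98 ± 12.2 to 81.0 ± 11.9 FPKM (SD, n = 5 each), with overlapping ranges. That call was lost when any of 8 libraries was left out (males 1, 2, 3 and 5 and females 1, 3, 4 and 5), at adjusted p of up to 0.122, and in 7 other settings, among them limma-voom, quantile normalization and scaling by total FPKM.

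Among 16 tested rows for calcium and phosphate hormones and receptors, 2 rose and none fell (median log2 fold change 0.12), and 0 were lower at an unadjusted limma p of at most 0.05 or with limma-voom. *Stc2*, a stanniocalcin, rose from 1.46 ± 0.189 to 7.35 ± 3.69 FPKM (log2 fold change 2.09, limma adjusted p = 0.00797), with females at 11.3, 3.01, 3.84, 9.18 and 9.40 FPKM and males at 1.25 to 1.75 FPKM. *Galnt3*, whose enzyme protects FGF23 from cleavage, rose from 5.62 ± 0.532 to 11.6 ± 2.34 FPKM (log2 fold change 1.02, limma adjusted p = 0.00233). Neither gene's ranges overlapped between the sexes.

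None of 20 tested genes for tubular calcium transport and its regulators, and none of 6 claudins, passed limma's adjusted test, and none did with limma-voom. At an unadjusted p of at most 0.05, 3 of the 20 were higher and 1 lower in females, and 1 of the 6 claudins was lower, against 15.7% of all tested genes in either direction. The largest absolute log2 fold changes among the former were those of *Sgk1*, a kinase induced by aldosterone (log2 fold change -0.48, limma adjusted p = 0.284), and *Atp2b3*, a calcium pump near the filter (0.44, limma adjusted p = 0.470). Among the claudins *Cldn2*, which forms a cation pore of the proximal tubule, was at -0.42 (limma adjusted p = 0.123) without overlap, and with quantile normalization it passed (limma adjusted p = 0.0437), while *Cldn10* was at 0.15 (limma adjusted p = 0.581).

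Of 10 tested rows for receptors of sex steroids, growth hormone, prolactin and corticosteroids, 2 fell and none rose (0 were higher at an unadjusted p of at most 0.05 and 0 with limma-voom). *Prlr*, the prolactin receptor gene, was at 12.8, 16.5, 12.2, 35.8 and 20.8 FPKM in the males and at 5.94, 3.18, 3.73, 5.67 and 4.44 FPKM in females (log2 fold change -1.99, limma adjusted p = 0.00369). *Esr1*, the gene of an oestrogen receptor, was at 5.504 ± 0.826 FPKM in the males and 2.40 ± 0.791 FPKM in females (SD, n = 5 each, log2 fold change -1.20, limma adjusted p = 0.00793). For both, every female library was below every male library. *Esr1* overlaps small RNA genes in the annotation.

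**Figure D4:**
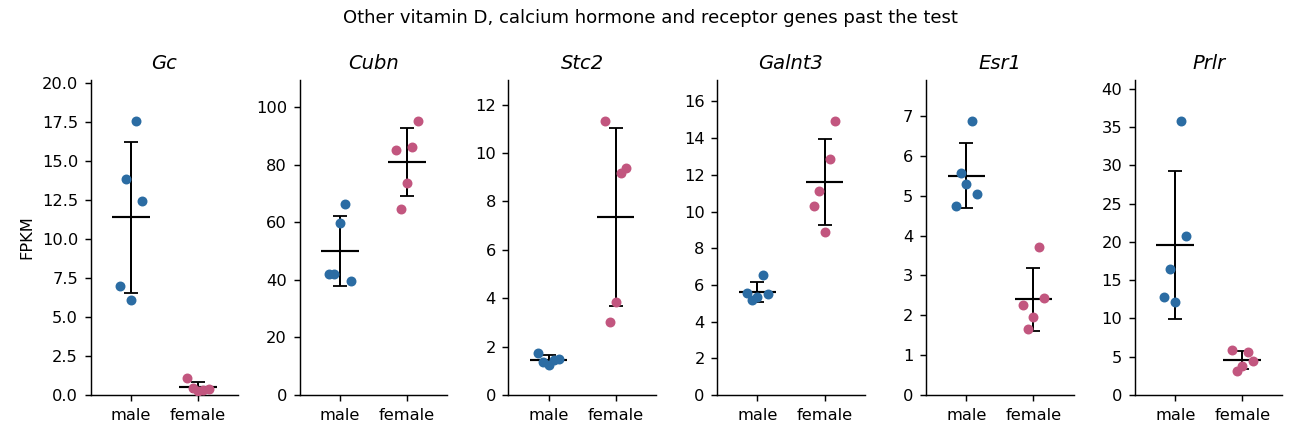
FPKM (vertical axes, each starting at 0) of the 6 listed pathway genes past the adjusted limma test in 5 male (blue) and 5 female (pink) rats, with 1 point per library, the mean as a line and the SD as a bar. *Gc*, *Esr1* and *Prlr* are lower in all 5 females than in any male, *Stc2* and *Galnt3* are higher, and *Cubn* overlaps between the sexes.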

How the data were processed

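RNA of renal cortex from 5 male and 5 female PCK rats was analysed, grouped by the sex in the sample labels. The authors' provider used HISAT2 and Ensembl's Rnor_6.0 and expressed 32545 genes as FPKM, and this table was deposited. The submitters' processing notes name fastp, HISAT2 2.0.5, StringTie 1.3.3b and featureCounts 1.5.0-p3, and the strand setting is not given in the sources used here. Dividing each FPKM by the worth of 1 read gave whole reads for 100% of values (tolerance 0.01), from which depth was taken.

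Because the values are FPKM and not counts, limma (lmFit and eBayes with trend) was run on log2(FPKM + 0.1) for 17631 genes that averaged 0.1 FPKM or more, with Benjamini-Hochberg adjustment. Fold changes are on that scale and understate those of low genes. Single members, ratios and marker sums had an exact permutation test over all splits of 5 against 5, two-sided, which covers the spread between these rats only. R 4.3.3, limma 3.58.1, Python 3.11.15, scipy 1.17.1, numpy 2.4.6 and pandas 2.3.3 served for the computation, and both procedures were tested on simulated data.

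The members and all lists were chosen with earlier results of these data known. The rule named all members, and from each pathway list the genes at an adjusted p of at most 0.05 or, where fewer than 2 had one, up to 2 with the largest absolute log2 fold change. From the marker lists the genes at an adjusted p of at most 0.05 are given. For likeness, the 3 genes with the highest r were named, except for 1 gene that is not reported here. Listed genes not matched by symbol (*Cyp3a62*, *Pthlh*, *Klk1* and *Trp63*) were not analysed here, and *Cyp3a9*, *Gnas* and *Nr3c1* are listed under 2 identifiers each. Alternatives were other pseudocounts, filters, scalings and eBayes settings, the replicate number as a block, limma-voom on recovered reads, the adjusted p alone and leaving out each library.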

Additional observations from a re-analysis of the deposited data

Results flagged for a closer look

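*Cyp27b1* in male 2 was at 0.399 FPKM (18 reads), far from the other 4 males, of which the nearest was at 0.134 FPKM. Its gap to that value was 0.772 of the male range, above Dixon's critical value of 0.71 for 5 samples. The 10 members in each sex gave 20 groups to examine, and chance alone marks about 1 in 20.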

How the results depend on the processing

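Of the values and counts recomputed under the alternatives, 498 kept their direction and side of the threshold or, for counts, about their size. Another 30 lost and 3 gained the threshold, 16 changed sign and 6 counts moved. Values among the 498 could still change in size, and the difference in mean FPKM of *Slc8a1* went from 2.78 to 0.295 with scaling by total FPKM. Of the 498, 33 came from median-ratio scaling, which could move nothing because the deposited values already lie on that scale. With each library left out in turn, 1 to 2 members passed both thresholds (2 without males 1, 3 or 5 or females 1 or 5), and with all libraries 3 passed at the adjusted p alone. The difference between the sexes in the log2 ratio of *Cyp24a1* to *Cyp27b1* was 1.35 (exact permutation p = 0.0794) with a pseudocount of 0.01. With the replicate number as a block it was 1.36 (p = 0.0625 by exact sign flips, the smallest that 5 pairs allow). Same-numbered libraries deviated together with r of only -0.10 to 0.07, which shows no pairing by number but cannot exclude one. In the block fit *Cyp24a1* kept its call (limma adjusted p = 0.0128), while *Calb1* (0.134) and *Vdr* (0.0508) lost theirs, and 119 genes rose and 112 fell at the adjusted p alone against 223 and 201 without the block. Directions turned for *Cyp27b1*, *Trpv5*, *S100g* and *Casr* only, in the values given here. With quantile normalization the log2 fold change of *Cyp27b1* was 0.0353 and the difference between the sexes in its log2 ratio to proximal markers was 0.12. With a library left out, its log2 fold change ran from -0.23 to 0.20, the difference in its log2 ratio from -0.34 to 0.13 and its difference in mean FPKM from -0.0559 to 0.0302. Likewise the log2 fold change ran from -0.0159 to 0.41 for *Trpv5* and from -0.00677 to 0.46 for *S100g*, the difference in mean FPKM of *S100g* from -0.180 to 1.14, the difference in the log2 ratio of *S100g* to distal markers from -0.53 to 0.0352 and the difference in that of *Casr* to ascending limb markers from -0.0740 to 0.14. The cause was not tested.

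Scaling by total FPKM moved the median log2 fold change of all genes to -0.12, and *Vdr* was then at 0.77 (limma adjusted p = 0.0885). The call of *Vdr* was also lost in eBayes without trend (0.0566). A pseudocount of 1 left 65 genes higher and 72 lower past both thresholds, against 109 and 123. Without female 5, 142 genes rose and 124 fell at the adjusted p alone, without male 3, 140 and 138, and without female 2, 284 and 266. Depth limits *Cyp27b1* (2 to 18 reads), *S100g* (11 to 45), *Atp2b3* (10 to 30) and *Gc* in females (8 to 33).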

Other observations

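Marker lists of further kidney cell types were summed in each library. Principal cell markers ran from 327 to 520 FPKM in the males and from 379 to 586 FPKM in females (exact permutation p = 0.0952), podocyte markers from 137 to 190 and from 137 to 218 FPKM (exact permutation p = 0.198) and endothelial markers from 159 to 204 and from 155 to 230 FPKM (exact permutation p = 0.302). Immune cell markers ran from 597 to 1028 FPKM in the males and from 508 to 1090 FPKM in females (exact permutation p = 1). *Cd74* made up most of that sum, with means of 661 of 717 FPKM in males and 674 of 716 FPKM in females. Of the 7 immune markers, 0 had a log2 fold change above 0 (median -0.46). Summed urothelial markers were at 0.200 to 0.422 FPKM in the males and 0.378 to 12.8 FPKM in females (exact permutation p = 0.0159), where 12.8 FPKM was female 2 alone and the other 4 females were at 0.378 to 0.763 FPKM, while smooth muscle and fibroblast markers gave an exact permutation p of 0.0317 and injured tubule markers 0.198. *Avpr2* of the principal cell list was higher in females by 0.44 on the log2 scale (limma adjusted p = 0.0469) and *Atp6v0d2* of the intercalated cell list by 0.57 (limma adjusted p = 0.0351). Each lost its call after scaling by total FPKM and with most libraries left out, *Avpr2* in 8 of 10 fits (all but male 1 and female 2, adjusted p up to 0.125) and *Atp6v0d2* in 7 (all but male 5 and females 1 and 2, adjusted p up to 0.0937). In the smooth muscle and fibroblast list *Col3a1* fell by 1.14 on the log2 scale, and in the injured tubule list *Sox9* fell by 1.27 (both at limma adjusted p of at most 0.05). With a library left out each of these calls was lost in 7 of 10 fits, that of *Col3a1* without any male or without female 1 or 5 (adjusted p up to 0.118) and that of *Sox9* without male 2, 3 or 5 or female 2, 3, 4 or 5 (adjusted p up to 0.0966).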
